A study of Mus musculus with 11 samples.

Results

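The changes that 4 days of tumour necrosis factor (TNF) at 2 ng/ml made in cultured mouse adipocytes were read from all probe sets that carry exactly 1 gene symbol, 34945 of the 45101 on the array. They stand for 18193 genes, of which 15625 were bright enough to be tested. The cells were 3T3-L1 adipocytes, which are grown from a mouse preadipocyte cell line and differentiated into fat cells in culture. RNA of cells given TNF (n = 3 arrays) was set against RNA of untreated cells, called control (n = 3), and treatments were staggered so that all cells were harvested at the same day after differentiation. The same study held cells given 20 nM dexamethasone for 8 days (DEX, n = 3), with the drug renewed every other day in an ethanol carrier, and cells given 4 additions of 10 nM insulin over 2 days (CI, n = 2). These serve below only to show where TNF differs from another treatment. Whether arrays of a group stand for separate cultures is not stated in the labels. A p-value here therefore measures spread among these arrays alone, and that spread may be technical.

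TNF binds the receptors TNFR1 and TNFR2. Through TRADD and TRAF adaptors it activates the IKK kinase complex, which marks the IkappaB proteins for breakdown and so frees the NF-kappaB transcription factors to enter the nucleus. Many NF-kappaB targets are chemokines, adhesion molecules and acute-phase proteins, and others, such as IkappaB alpha and A20, shut the pathway off again. In fat, TNF is known as a cytokine that opposes adipocyte differentiation, raises lipolysis and impairs insulin action.

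Promoter sequence is shown for 6 genes, so that the strongest responses of the study can be read beside the letters of an NF-kappaB site. Saa3 had the highest fold change and Lrrc17 the lowest. Ccl9, Nfkbie, Tlr2 and Tmem176a were chosen from the 20 highest because their windows hold those letters. Each window runs from 250 bases before to 50 bases after the gene's start, 5′ to 3′ along the gene, from RefSeq (GRCm38.p6). Capitals mark, on either strand, the NF-kappaB letters searched, which are GGG, any 3 bases and then TTCC.
Saa3 (chr7:46715627-46715926, minus strand): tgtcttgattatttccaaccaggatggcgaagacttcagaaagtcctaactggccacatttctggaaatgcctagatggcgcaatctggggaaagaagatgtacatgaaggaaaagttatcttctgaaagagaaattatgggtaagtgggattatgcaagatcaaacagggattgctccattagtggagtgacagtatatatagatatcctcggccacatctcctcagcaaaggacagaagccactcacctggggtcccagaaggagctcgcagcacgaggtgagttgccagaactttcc
Ccl9 (chr11:83578587-83578886, minus strand): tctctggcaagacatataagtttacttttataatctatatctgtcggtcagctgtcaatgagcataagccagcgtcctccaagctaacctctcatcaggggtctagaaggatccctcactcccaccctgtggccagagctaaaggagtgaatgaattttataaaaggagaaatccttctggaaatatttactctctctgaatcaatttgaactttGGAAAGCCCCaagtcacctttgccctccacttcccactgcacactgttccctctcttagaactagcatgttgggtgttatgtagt
Nfkbie (chr17:45555450-45555749, plus strand): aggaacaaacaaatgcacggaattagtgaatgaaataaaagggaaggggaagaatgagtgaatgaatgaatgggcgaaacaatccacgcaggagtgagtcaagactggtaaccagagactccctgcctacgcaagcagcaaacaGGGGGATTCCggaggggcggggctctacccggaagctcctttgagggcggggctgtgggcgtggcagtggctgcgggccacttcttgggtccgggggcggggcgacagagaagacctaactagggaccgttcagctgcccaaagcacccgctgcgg
Tlr2 (chr3:83841559-83841858, minus strand): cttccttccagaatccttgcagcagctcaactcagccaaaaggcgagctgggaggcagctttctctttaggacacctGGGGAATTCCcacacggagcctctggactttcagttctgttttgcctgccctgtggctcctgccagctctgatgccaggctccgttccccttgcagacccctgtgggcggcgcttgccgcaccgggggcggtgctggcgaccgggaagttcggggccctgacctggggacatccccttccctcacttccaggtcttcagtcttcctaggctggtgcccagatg
Tmem176a (chr6:48841233-48841532, plus strand): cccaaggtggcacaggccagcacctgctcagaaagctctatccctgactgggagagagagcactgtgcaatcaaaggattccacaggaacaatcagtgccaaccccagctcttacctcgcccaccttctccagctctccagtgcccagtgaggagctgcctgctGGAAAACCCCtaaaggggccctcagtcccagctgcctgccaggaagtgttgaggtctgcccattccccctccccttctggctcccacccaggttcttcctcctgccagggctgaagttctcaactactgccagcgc
Lrrc17 (chr5:21543277-21543576, plus strand): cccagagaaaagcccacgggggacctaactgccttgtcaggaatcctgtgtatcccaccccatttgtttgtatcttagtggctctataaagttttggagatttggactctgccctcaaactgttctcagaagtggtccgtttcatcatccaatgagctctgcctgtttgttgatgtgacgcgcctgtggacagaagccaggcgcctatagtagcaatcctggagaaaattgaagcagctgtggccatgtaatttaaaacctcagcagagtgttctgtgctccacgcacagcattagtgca

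In Ccl9 the match begins 35 bases before the start on the minus strand, and in Nfkbie 106 bases before it on the plus strand. Tlr2 holds it 173 bases before the start on the plus strand, and Tmem176a, in 1 of its 2 windows, 86 bases before it on the minus strand. The Saa3 window has no such letters, but holds 1 match to the core of an interferon-stimulated response element (TTTC, any 2 bases and TTTC) and 1 to TTGCNNAA, a C/EBP site. Of the 20 genes with the highest fold change 12 had a window that was searched, and 4 of these held the NF-kappaB letters. Of the 20 lowest 14 had a window, and 0 held them. With so few genes, 0 cannot be told apart from the share of all windows given below. Over all genes that passed with more than 2-fold higher values in TNF, 17 of 115 windows held the letters (14.8%). The share was 5.56% of all 32851 windows and 5.88% of the windows of tested genes. The AP-1 letters TGANTCA were in 19.1% of the windows of the more than 2-fold higher genes. They were in 7.81% of all windows and 5.92% of those of tested genes. In the same order the shares were 6.09%, 3.44% and 2.96% for the interferon element, and 12.2%, 10.8% and 8.94% for C/EBP. Genes more than 2-fold lower had 13 windows, of which 0 held the NF-kappaB or interferon letters, 1 those of AP-1 and 2 those of C/EBP. Both strands were searched, the searches may overlap, and a match is a stretch of letters, not a measured binding site.

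Across the 15625 genes, 25.1% passed, which means a p from limma under 0.05 once adjusted by the Benjamini-Hochberg method, in a fit of all 11 arrays. Higher in TNF were 13.9% of all genes and lower 11.2%, and the median log2 fold change was -0.01. The balance of directions depended on scaling, with 1783 genes higher and 2076 lower after quantile normalization, against 2388 and 1384 after centring each array on its median and 2169 and 1755 as reported here. The shares as reported are the background for every list below. Large changes were mostly increases, since 0.749% of genes passed with more than 2-fold higher values and 0.0896% with more than 2-fold lower ones. In 24.6% of genes the test passed and no TNF array overlapped a control array. Fold changes are on the log2(intensity + 16) scale, which understates the change of dim genes.

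**Figure D1:**
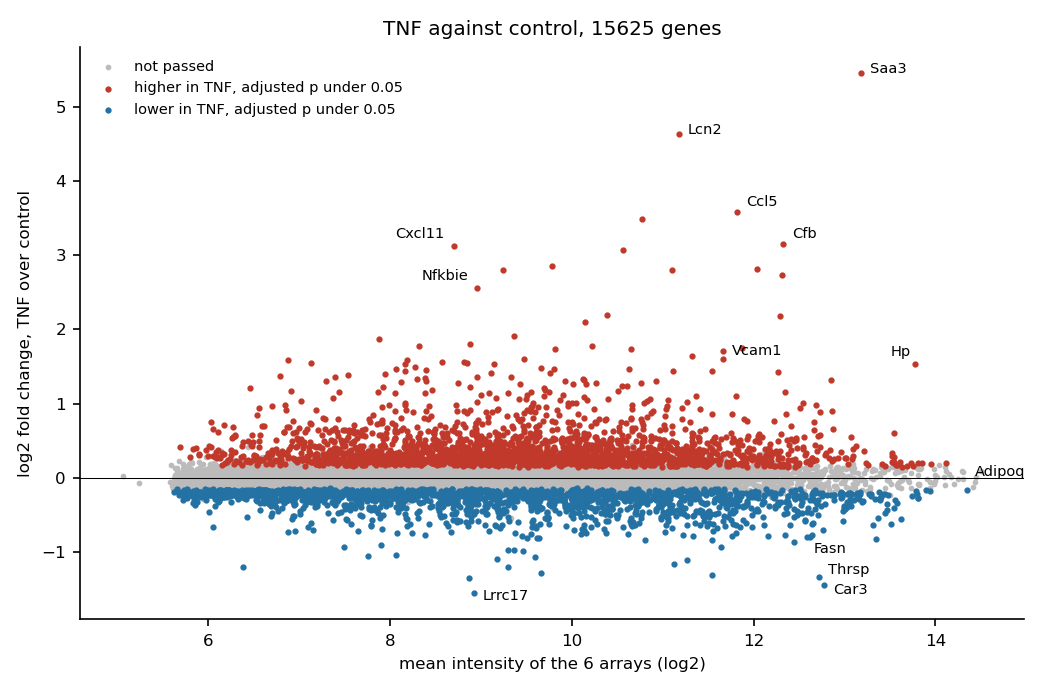
Log2 fold change of TNF over control (vertical) against the mean intensity of the 6 arrays (horizontal, log2) for 15625 genes, one point each. Red points passed higher, blue points passed lower and grey points did not pass. The increases reach 5.46 for Saa3, while the lowest value is -1.56 for Lrrc17.

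The cells were adipocytes by their markers on all 6 arrays. Adipoq, which encodes the fat hormone adiponectin, was at 20816, 20933 and 20922 on the TNF arrays, against 22390.5, 23388 and 22705 on the control arrays, near the highest intensity that any array held (22501 to 25933). All TNF arrays were below all controls by a small step, and the gene did not pass (log2 fold change -0.13, SE 0.0479, adjusted p = 0.0647). Fabp4, a fatty acid carrier (-0.05), Lpl, lipoprotein lipase (-0.08), Lep, leptin (-0.08), and Pparg, the master transcription factor of fat cells (-0.11), did not pass either. The other markers behaved differently: 7 of 12 defining adipocyte markers tested fell, and 0 rose (0 also at an unadjusted p under 0.05), with a median of -0.34. They were Car3, Retn, Cidec, Slc2a4, Cebpa, Lipe and Pnpla2, and are described with their pathways. A change in the share of differentiated cells and a change of RNA per cell cannot be told apart in these samples.

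Several defining genes of other cells were below the dim filter. Of 21 macrophage and leukocyte markers with a probe set, 16 were above the dim filter of 51.6 and the rest, among them the leukocyte antigen gene Ptprc and the macrophage genes Itgam and Mrc1, were below it. Ptprc was at 22.3, 25.4 and 26.2 on the TNF arrays, against 26.5, 24.1 and 24.3 on the control arrays. The summed intensity of the 16 lay between 6459 and 6703 on the TNF arrays and between 5685 and 6002 on the control arrays. Cd53 (0.61), Cybb (0.49) and Lyz2 (0.34) rose, and Fcgr1 (-0.16) and Laptm5 (-0.28) fell, while the macrophage marker Adgre1 (-0.14) and the monocyte receptor Cx3cr1 (-0.01) did not pass. Those 3 and 2 are all that passed of the 16 (18.75% and 12.5%), close to the 13.9% and 11.2% of all genes. The fall of Laptm5 was lost with the mean of its probe sets (adjusted p = 0.145), and that of Fcgr1 in 6 alternatives, 4 of which left out 1 array (TNF replicate 1 or 2, control replicate 2 or 3). Of 10 endothelial markers 5 were tested, and 0 passed in limma (1 was lower at an unadjusted p under 0.05). The part of other cells in the results below was not tested.

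The strongest increases were genes of the acute-phase response, the set of plasma proteins that the liver and fat make in inflammation. Of 20 such genes tested, 11 rose and 4 fell, with a median of 0.39. Saa3, the serum amyloid A that adipocytes and macrophages make, was at 18293, 19250.4 and 17006 on the TNF arrays, against 372, 368 and 458 on the control arrays. The groups lie far apart, and the TNF values approach the top of the arrays' range, where a change can be understated (log2 fold change 5.46, SE 0.176, adjusted p = 2.57e-11). Lcn2, which binds bacterial iron-siderophore complexes, was at 4091, 6606 and 2716 on the TNF arrays, against 113, 140.2 and 225 on the control arrays. TNF replicates differed more for Lcn2 than for Saa3, but all stood above all controls (log2 fold change 4.63, SE 0.289, adjusted p = 3.56e-08).

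Hpx, encoding the haem-binding protein hemopexin, lay at 3074, 3711 and 2904 on the TNF arrays, against 253, 262 and 298 on the control arrays (log2 fold change 3.49, SE 0.127, adjusted p = 9.09e-11). The 3 TNF values are close to each other and none comes near a control. Chil1, a chitinase-like secreted protein, rose by 2.86 (SE 0.0743, adjusted p = 2.23e-12), and Ptx3, a long pentraxin, by 1.70 (SE 0.126, adjusted p = 1.75e-07). Hp, which encodes haptoglobin, binds free haemoglobin and is bright in untreated adipocytes, was at 20354, 21921 and 20288 on the TNF arrays, against 8021, 6844 and 6701 on the control arrays (log2 fold change 1.54, SE 0.0676, adjusted p = 7.85e-10). Its TNF values are also near the top of the range. The ferroxidase gene Cp rose by 1.43, the protease inhibitor gene Serpina3n by 0.88 and the zinc and iron importer Slc39a14 by 0.85. Lbp, whose protein hands bacterial lipopolysaccharide to CD14, was at 1089.6, 1121 and 999 on the TNF arrays, against 123, 151 and 147 on the control arrays (log2 fold change 2.80, SE 0.0835, adjusted p = 9.72e-12). A dimmer probe set of Lbp gave a smaller log2 fold change of 0.36, so the size of its rise depends on the probe set.

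Not all acute-phase genes moved up. Orm2, which encodes an orosomucoid, was at 495, 499.6 and 492 on the TNF arrays, against 1020.5, 1022 and 1129.7 on the control arrays (log2 fold change -1.07, SE 0.0907, adjusted p = 7.47e-07). Its sister gene Orm1 lay at 3876, 4287 and 3692 on the TNF arrays, against 7591, 7076 and 7004 on the control arrays (log2 fold change -0.87, SE 0.0793, adjusted p = 1.54e-06). Both were lower on every TNF array than on every control array, opposite to Saa3 and Hp. The 2 genes are close copies, so their probe sets may share signal. Tfrc, the transferrin receptor for iron uptake, fell too (log2 fold change -0.68, SE 0.0665, adjusted p = 3.01e-06). The haem oxygenase gene Hmox1 (-0.20) and the ferritin gene Fth1 (0.09) did not pass.

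Chemokines, the small proteins that attract leukocytes, were the second group of large increases. Of 15 CC chemokines tested 6 rose and 0 fell (0 also at an unadjusted p under 0.05), and 9 did not pass. Ccl5, which draws T cells and monocytes, was at 7134, 6174 and 6672 on the TNF arrays, against 525, 585 and 518 on the control arrays (log2 fold change 3.58, SE 0.123, adjusted p = 5.32e-11). Ccl2, the monocyte chemoattractant MCP-1, lay at 8449, 7505 and 6248 on the TNF arrays, against 1125, 1113 and 871 on the control arrays (log2 fold change 2.82, SE 0.134, adjusted p = 2e-09). For both, every TNF array was brighter than every control array. The monocyte attractants Ccl7 and Ccl8 rose by 2.10 and 3.07, Ccl9, whose promoter is shown above, by 2.73 (SE 0.13, adjusted p = 2e-09), and the eosinophil attractant Ccl11 by 1.38. Among the 9 others the values lay between -0.12 for Ccl22 and 0.10 for Ccl20, and the macrophage chemokines Ccl3 (-0.01) and Ccl4 (-0.02) were also there.

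Of 12 CXC and CX3C chemokines, 8 rose and 1 fell (median 0.54). Cxcl11, a ligand of the T cell receptor CXCR3, was at 789, 726 and 765 on the TNF arrays, against 70.2, 75.2 and 72.6 on the control arrays. The TNF signal was clear and the control signal barely above the dim filter, with little spread in either (log2 fold change 3.13, SE 0.0769, adjusted p = 1.48e-12). Cxcl5, a neutrophil attractant, lay at 3840.3, 4844 and 2866 on the TNF arrays, against 533, 670.4 and 402 on the control arrays (log2 fold change 2.81, SE 0.178, adjusted p = 4.17e-08). Cxcl9 and Cxcl10, the other CXCR3 ligands, rose by 1.80 and 1.05, and Cxcl1, another neutrophil attractant, by 0.70 on its brightest probe set and by 2.21 and 1.55 on the other sets. Cxcl12, which retains stem cells and leukocytes in tissue, rose by 0.60 on its brightest probe set and by 1.93 on another, so its size is uncertain. The 1 that fell, Cxcl15, was dim and its call was lost without TNF replicate 2 (adjusted p = 0.155), TNF replicate 3 (0.129), control replicate 1 (0.156) or control replicate 2 (0.13).

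**Figure D2:**
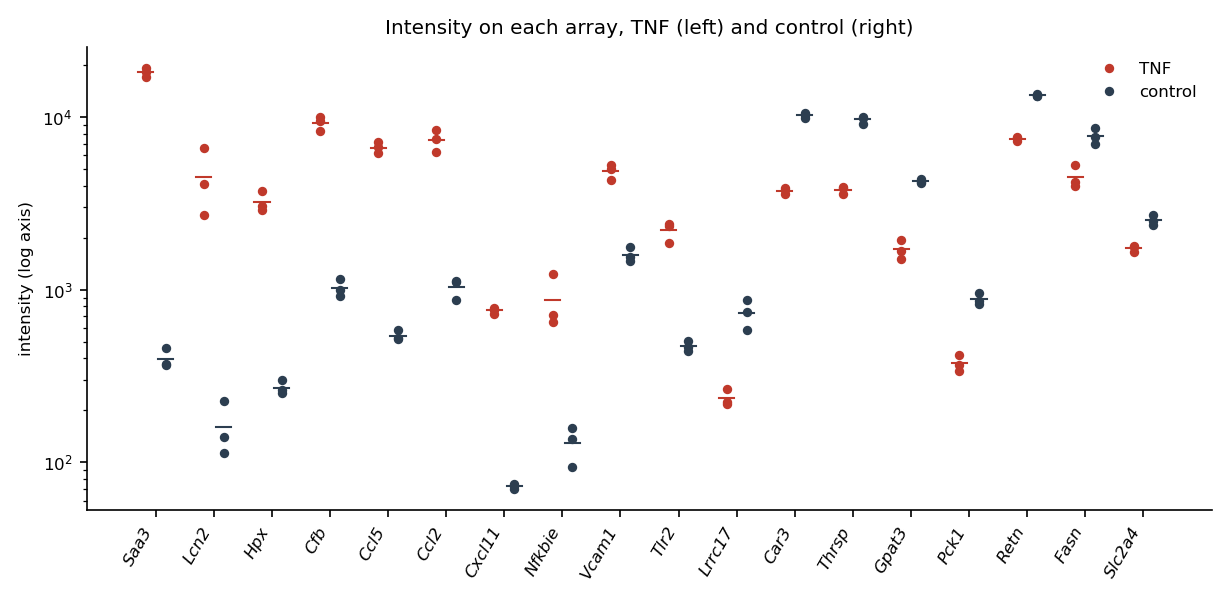
Intensity on each array (log axis) for 18 genes, with the 3 TNF arrays left (red) and the 3 control arrays right (dark) for each gene; short lines are means. In the 10 genes from Saa3 to Tlr2 every TNF array lies above every control array, and in the 8 from Lrrc17 to Slc2a4 every TNF array lies below.

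Complement, the plasma cascade that tags microbes, responded in part. Of 18 components and regulators 6 rose and 2 fell, with a median of 0.05, which was 0.02 without control replicate 1 and 0.08 without control replicate 2. The 2 that fell, C6 (-0.26) and Cd46 (-0.15), were lower by little, and 0 passed as lower without TNF replicate 3 or control replicate 1. Cfb, complement factor B of the alternative pathway, was at 9514, 9961 and 8293 on the TNF arrays, against 1159, 997 and 923 on the control arrays (log2 fold change 3.16, SE 0.188, adjusted p = 2.09e-08). The groups are far apart in a bright gene. The proteases C1s1 and C1ra of the classical pathway rose by 1.75 and 0.90, and 2 inhibitors rose with them, Serping1 by 0.90 and clusterin (Clu) by 1.64. C1qa, of the classical pathway's first component, did not pass (0.06).

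Most of the NF-kappaB pathway's own genes rose. Of 26 subunits and feedback inhibitors 16 rose and 1 fell, with a median of 0.33. Nfkbie, which encodes the inhibitor IkappaB epsilon, was at 1235, 714 and 649.8 on the TNF arrays, against 158, 137 and 94.2 on the control arrays (log2 fold change 2.56, SE 0.217, adjusted p = 7e-07). One TNF array was brighter than the other two, and all were above the controls. Nfkbia, for IkappaB alpha, lay at 8707, 8139 and 7600.1 on the TNF arrays, against 4950.0, 5103 and 4502 on the control arrays (log2 fold change 0.75, SE 0.0663, adjusted p = 1.19e-06). Its 5 probe sets gave log2 fold changes of 0.73 to 0.92. Tnfaip3, for the deubiquitinase A20, was at 888, 872 and 666 on the TNF arrays, against 346, 296 and 245 on the control arrays (log2 fold change 1.41, SE 0.114, adjusted p = 4.82e-07).

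The noncanonical subunits and partners rose as well. Relb, a subunit that pairs with the Nfkb2 product, rose by 1.15 (SE 0.107, adjusted p = 1.76e-06), Nfkb2 by 0.69 (SE 0.115, adjusted p = 0.000449), and the nuclear cofactor Bcl3 by 1.39 (SE 0.0888, adjusted p = 4.28e-08). The kinase gene Ikbke rose by 1.56, and Nfkbiz, for a nuclear member of the IkappaB family, by 0.91. Rela, the main activating subunit, did not pass (0.18, adjusted p = 0.068), and Ikbkg, the scaffold of the IKK complex, fell (-0.26, adjusted p = 0.0102) but did not pass without control replicate 3 (adjusted p = 0.0545).

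Receptors that sense bacteria and cytokines rose in part. Of 30 TNF, toll-like and IL-1 receptor and adaptor genes 11 rose and 0 fell (1 lower at an unadjusted p under 0.05), with a median of 0.04, close to the -0.01 of all genes. Tlr2, the receptor for bacterial lipoproteins, was at 2414, 2331 and 1870.0 on the TNF arrays, against 502, 467 and 439 on the control arrays (log2 fold change 2.19, SE 0.117, adjusted p = 6.98e-09). Cd14, its co-receptor, lay at 1229, 1322 and 1051 on the TNF arrays, against 460.1, 409.8 and 385 on the control arrays (log2 fold change 1.48, SE 0.0882, adjusted p = 2.09e-08). Neither overlapped its controls. Tlr4, the lipopolysaccharide receptor, rose by 0.89 and its partner Ly96 by 0.54. Of the 2 TNF receptors, Tnfrsf1b rose by 0.57 (SE 0.0704, adjusted p = 3.14e-05) and Tnfrsf1a, which carries the death domain, did not pass (0.04 (SE 0.0475, adjusted p = 0.595)). The rise of Tnfrsf1b rests on 1 probe set, since another did not pass (-0.003, adjusted p = 0.982). The death receptor gene Fas rose by 1.27 and the IL-1 receptor accessory gene Il1rap by 1.42. Other probe sets of Il1rap gave 1.09 and 1.06, which passed, and 0.04 and -0.18, which did not. Tnf itself (-0.11) and Il1b (0.02) did not pass.

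Signalling through IL-6 moved at several steps. Of 25 genes 11 rose and 0 fell (2 lower at an unadjusted p under 0.05), with a median of 0.19. Without control replicate 3 the median was 0.07 and 1 gene fell, as 1 did without TNF replicate 1. Il6 was at 502, 468 and 333 on the TNF arrays, against 149.9, 160.2 and 108 on the control arrays (log2 fold change 1.53, SE 0.179, adjusted p = 1.74e-05). The groups are apart although the TNF arrays spread. Its shared signal-transducing receptor Il6st rose by 0.90 (SE 0.0818, adjusted p = 1.48e-06), the kinase gene Jak2 by 0.93 (SE 0.0639, adjusted p = 9.23e-08), the transcription factor Stat3 by 0.42 (SE 0.105, adjusted p = 0.00953), lost without TNF replicate 2 (0.0535), and the feedback inhibitor Socs3 by 1.07 (SE 0.113, adjusted p = 6.65e-06). The oncostatin M receptor Osmr rose by 1.44, the LIF receptor by 0.96 and the macrophage growth factor Csf1 by 1.10. Socs1 (0.03) and Jak1 (0.04) did not pass.

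Adhesion molecules responded unevenly. Vcam1, which binds leukocyte integrins, was at 5303, 5016 and 4336 on the TNF arrays, against 1779, 1543 and 1460.0 on the control arrays (log2 fold change 1.61, SE 0.0884, adjusted p = 1.01e-08), and its other probe sets gave 1.65 and 2.40. Icam1, another classical NF-kappaB target of endothelium, was at 75.8, 78.7 and 61.2 on the TNF arrays, against 70.5, 68.9 and 74.7 on the control arrays. Its groups overlapped and it did not pass (log2 fold change 0.00, SE 0.0723, adjusted p = 0.975). Olr1, a receptor for oxidised lipoprotein, rose by 0.65 and the hyaluronan receptor Cd44 by 1.06. Mcam fell by 0.64 on the log2 scale. In all 8 of 21 rose and 3 fell.

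Interferon-stimulated genes moved in part, with a median near 0. Of 31 tested 9 rose and 2 fell, and the median of -0.02 turned to 0.00 after centring each array and lay between -0.04 and 0.01 with 1 array left out, above 0 without TNF replicate 1, TNF replicate 3 or control replicate 2. Ifit2 rose by 0.84 (SE 0.0833, adjusted p = 3.7e-06) and the transcription factor Irf1 by 0.38 (SE 0.0878, adjusted p = 0.00524), while Rsad2 fell (-0.51 (SE 0.0859, adjusted p = 0.00046)). The other that fell, Mx2, was lost without TNF replicate 2 (adjusted p = 0.0505), TNF replicate 3 (0.0699), control replicate 1 (0.0757) or control replicate 2 (0.0820). Of 19 antigen presentation genes 9 rose and 0 fell (0 also at an unadjusted p under 0.05, median 0.19). Cd74, the invariant chain that guides MHC class II, was at 1071, 981 and 1093 on the TNF arrays, against 247, 261 and 294 on the control arrays (log2 fold change 1.91, SE 0.0775, adjusted p = 3.32e-10). The class II chains H2-Aa (-0.01), H2-Ab1 (-0.10) and H2-Eb1 (-0.06) and their master regulator Ciita (0.04) did not pass. The immunoproteasome subunits Psmb10, Psmb8 and Psmb9 rose by 0.53, 0.45 and 0.28. Of 31 constitutive proteasome subunits 0 rose (0 also at an unadjusted p under 0.05) and 8 fell (25.8%, against 11.2% of all genes). The number that fell was 4 without TNF replicate 1, TNF replicate 2 or control replicate 3. Over all genes it was 1244, 1273 and 1196 in these settings, against 1755 with every array.

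Genes that promote cell death and genes that prevent it were among those that rose. Of 20 tested 8 rose and 1 fell, and of the sets with 1 array left out, 1 passed as lower without TNF replicate 1 and 0 did in the others. Casp4, the caspase that senses lipopolysaccharide in the cytosol, rose by 1.47 (SE 0.117, adjusted p = 3.76e-07), and Ripk3, the necroptosis kinase, by 0.77 (SE 0.0952, adjusted p = 2.87e-05). The pore protein gene Gsdmd rose by 0.38, and the survival genes Ier3 and Gadd45b by 0.63 and 0.58 (0.90 on another probe set of Gadd45b). Cflar, which blocks caspase 8, did not pass (0.13). Ptgs2, the inducible cyclooxygenase, was below the dim filter and not tested, at 53.9, 51.5 and 42.4 on the TNF arrays, against 58.3, 50.0 and 39.3 on the control arrays. Sod2, the mitochondrial superoxide dismutase and a known NF-kappaB target, lay at 7729, 8129 and 7443 on the TNF arrays, against 5765, 5687 and 5951 on the control arrays (log2 fold change 0.42, SE 0.0573, adjusted p = 7.65e-05).

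**Figure D3:**
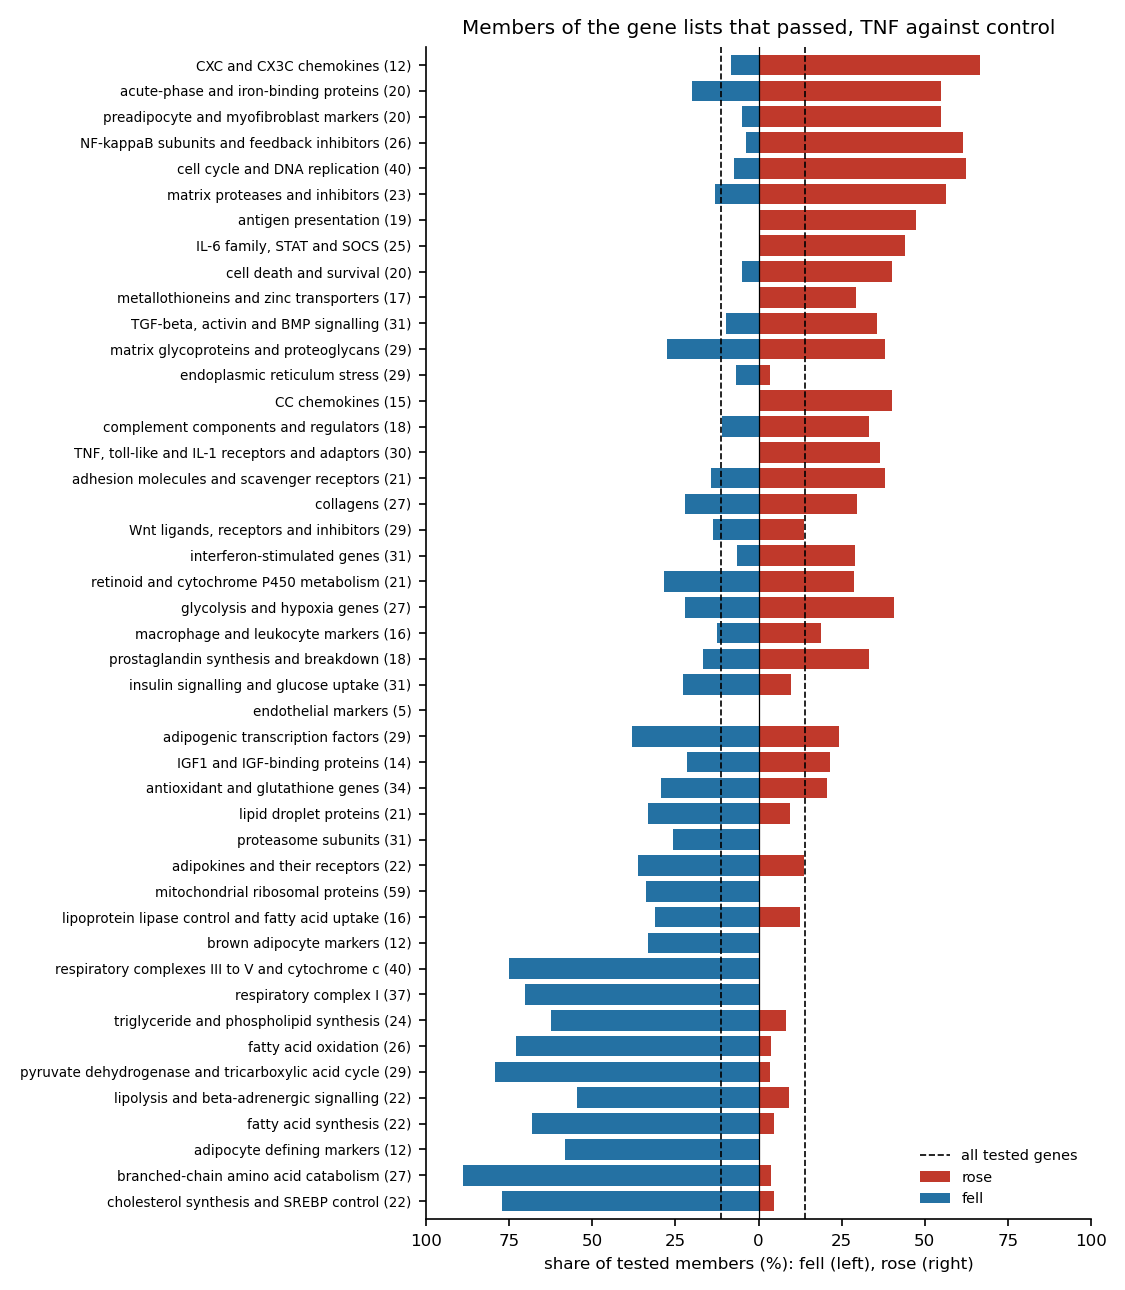
Share of the tested members of each gene list (number in brackets) that rose (red, to the right) or fell (blue, to the left) in TNF against control, in percent, with the lists ordered by their median log2 fold change. Dashed lines mark 13.9% higher and 11.2% lower over all tested genes. Cholesterol synthesis and branched-chain amino acid catabolism are at the bottom, and CXC chemokines and acute-phase proteins at the top.

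The transcription factors that drive fat cell formation moved both ways. Of 29 tested 7 rose and 11 fell, and the number that rose was 4 without TNF replicate 1 and 3 without control replicate 3. Their median lay between -0.10 and -0.01 with 1 array left out. Cebpd, an early factor that is also induced in inflammation, was at 2206, 2667 and 1743 on the TNF arrays, against 1097, 919 and 752 on the control arrays (log2 fold change 1.24, SE 0.151, adjusted p = 2.76e-05), although a dimmer probe set gave 0.09. Cebpb, its early partner, rose by 0.39 (SE 0.104, adjusted p = 0.0128). That call was lost without TNF replicate 1 (0.0542), TNF replicate 2 (0.0544), control replicate 2 (0.0555) or control replicate 3 (0.0655). Cebpa, the late factor that maintains the adipocyte state, lay at 4589, 4780.4 and 4366 on the TNF arrays, against 6901, 6512 and 6406 on the control arrays (log2 fold change -0.53, SE 0.0673, adjusted p = 4.09e-05). Every TNF array was below every control array. The late genes Klf15 and Rxrg fell (-0.53 and -0.51), as did Nr1h3, the liver X receptor alpha gene (-0.31), and the mitochondrial regulators Esrra (-0.40) and Ppargc1b (-0.33). Pparg was at 6786, 6489 and 6328 on the TNF arrays, against 7239, 7017 and 6842 on the control arrays, lower on every TNF array by a small step, and did not pass (log2 fold change -0.11, SE 0.0652, adjusted p = 0.255). Srebf1, the sterol and fatty acid regulator, rose by 0.28 (SE 0.0675, adjusted p = 0.00705).

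Hormones made by fat fell more often than they rose. Of 22 adipokines and receptors 3 rose and 8 fell. The number that fell was 5 without TNF replicate 1, TNF replicate 2 or control replicate 2, and 4 without control replicate 3. Retn, for resistin, was at 7308, 7644 and 7581 on the TNF arrays, against 13316, 13564 and 13268 on the control arrays (log2 fold change -0.83, SE 0.0535, adjusted p = 4.6e-08). Both groups were tight and well apart. Angptl8, an insulin-induced inhibitor of lipoprotein lipase, fell (-0.74 (SE 0.0649, adjusted p = 1.12e-06)), and so did angiotensinogen, Agt (-0.66 (SE 0.0567, adjusted p = 8.4e-07)). Grem1, a BMP antagonist, rose by 1.08 (SE 0.137, adjusted p = 4.02e-05).

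Single genes of insulin signalling moved both ways, while the share of the list that rose was below that of all genes. Slc2a4, the insulin-responsive glucose transporter GLUT4, lay at 1757, 1786 and 1658 on the TNF arrays, against 2722, 2380.2 and 2515 on the control arrays (log2 fold change -0.54, SE 0.0785, adjusted p = 0.000121). The ubiquitous transporter Slc2a1 moved the other way, at 935, 1043 and 937 on the TNF arrays, against 732, 695 and 734 on the control arrays (log2 fold change 0.42, SE 0.0662, adjusted p = 0.000253). Neither pair of groups overlapped. Grb14, a brake on insulin receptor signalling, was at 1880.5, 1778 and 1602 on the TNF arrays, against 736, 714 and 696 on the control arrays (log2 fold change 1.27, SE 0.0981, adjusted p = 2.67e-07). Insr (0.12), Irs1 (-0.17) and Irs2 (0.01), the receptor and its main substrates, did not pass. Akt2 fell (-0.22, adjusted p = 0.0275). Its call was lost without TNF replicate 1 (0.0885), TNF replicate 3 (0.0641), control replicate 1 (0.0855) or control replicate 3 (0.0747). Pik3r1 also passed as lower, but not without TNF replicate 1 (0.0680), TNF replicate 2 (0.0664) or control replicate 1 (0.0832). Over the list 3 of 31 rose (9.68%, against 13.9% of all genes) and 7 fell (22.6%, against 11.2%). The number that fell was 5 without TNF replicate 2 or control replicate 1. The median of -0.03 turned above 0 without TNF replicate 1 (0.0037) or control replicate 1 (0.0073). It was -0.05 without TNF replicate 3 and -0.0068 without control replicate 3.

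Most genes of triglyceride synthesis fell. Of 24 genes 15 fell and 2 rose, with a median of -0.28. Gpat3, which adds the first fatty acid to glycerol phosphate, was at 1674, 1507 and 1951 on the TNF arrays, against 4236, 4368 and 4162 on the control arrays (log2 fold change -1.31, SE 0.0761, adjusted p = 1.73e-08). Pck1, which makes the glycerol backbone in fat cells, lay at 339.6, 418 and 364 on the TNF arrays, against 962, 823 and 866 on the control arrays (log2 fold change -1.21, SE 0.187, adjusted p = 0.000231). Dgat2, which adds the last fatty acid, was at 4561, 4353 and 4791 on the TNF arrays, against 7652, 7812 and 8566 on the control arrays (log2 fold change -0.81, SE 0.0635, adjusted p = 3.41e-07). In each case all TNF arrays were below all controls. Lpin1 (-0.78), Gpd1 (-0.62) and Agpat2 (-0.51), which act between these steps, fell too. Acsl5, which activates fatty acids, rose (0.51).

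Most genes of de novo fatty acid synthesis fell too. Of 22 genes 15 fell and 1 rose, with a median of -0.33. Thrsp, the lipogenic protein Spot 14, lay at 3585, 3872 and 3959 on the TNF arrays, against 9941, 9154 and 9987 on the control arrays (log2 fold change -1.35, SE 0.0942, adjusted p = 1.05e-07), though a dimmer probe set gave -0.15 and did not pass. Fasn, fatty acid synthase, was at 4230.5, 3996 and 5275 on the TNF arrays, against 7679, 7009 and 8692 on the control arrays (log2 fold change -0.79, SE 0.102, adjusted p = 4.3e-05). Me1, the malic enzyme that supplies NADPH, fell by 0.75, Acly, ATP citrate lyase, by 0.59, and Acaca, acetyl-CoA carboxylase, by 0.47 on the log2 scale. Fads3 was the 1 gene that rose (0.37).

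Some lipid droplet and lipolysis genes fell as well. Cidec, which fuses droplets, was at 8212, 7862 and 7899 on the TNF arrays, against 12789.7, 11579.6 and 12951 on the control arrays (log2 fold change -0.64, SE 0.0596, adjusted p = 2.02e-06), and Bscl2, the seipin gene of droplet formation, fell by 0.66 on the log2 scale. The droplet coat gene Plin2 did not pass (0.11). In all 7 of 21 droplet genes fell and 2 rose. Pnpla2, the first lipase of triglyceride breakdown, lay at 8367, 8648 and 7649 on the TNF arrays, against 10108, 9749 and 10366 on the control arrays (log2 fold change -0.29, SE 0.064, adjusted p = 0.00355). Lipe, hormone-sensitive lipase, fell on its brightest probe set (log2 fold change -0.38, SE 0.0914, adjusted p = 0.00706) but not with the mean of its probe sets (-0.18, adjusted p = 0.0841). G0s2, which inhibits the Pnpla2 lipase, fell too (-0.49 (SE 0.0921, adjusted p = 0.00112)), as did the fatty acid receptor Ffar4 (-0.71). Of 22 lipolysis and beta-adrenergic genes 12 fell and 2 rose, with a median of -0.32.

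Cholesterol synthesis had the lowest median of all lists, -0.46, with 17 of 22 genes lower and 1 higher. That rank was lost without TNF replicate 2, where its median was -0.4394 and that of branched-chain amino acid catabolism -0.4403. Sqle, which oxidises squalene, was at 2724, 2709 and 3164 on the TNF arrays, against 4699, 4357 and 4579 on the control arrays (log2 fold change -0.67, SE 0.0757, adjusted p = 1.37e-05). Idi1 (-0.72), Fdps (-0.71) and Cyp51 (-0.66) of the same pathway fell too. Their regulator Srebf2 (0.03) and the sterol sensor Insig1 (-0.27) did not pass. The gene that rose was Scap, the escort of the SREBP factors (0.19, adjusted p = 0.0148), and it did not pass without TNF replicate 3 (0.0527) or control replicate 3 (0.0665), after quantile normalization (0.0599) or with the mean of its probe sets (0.334).

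**Figure D4:**
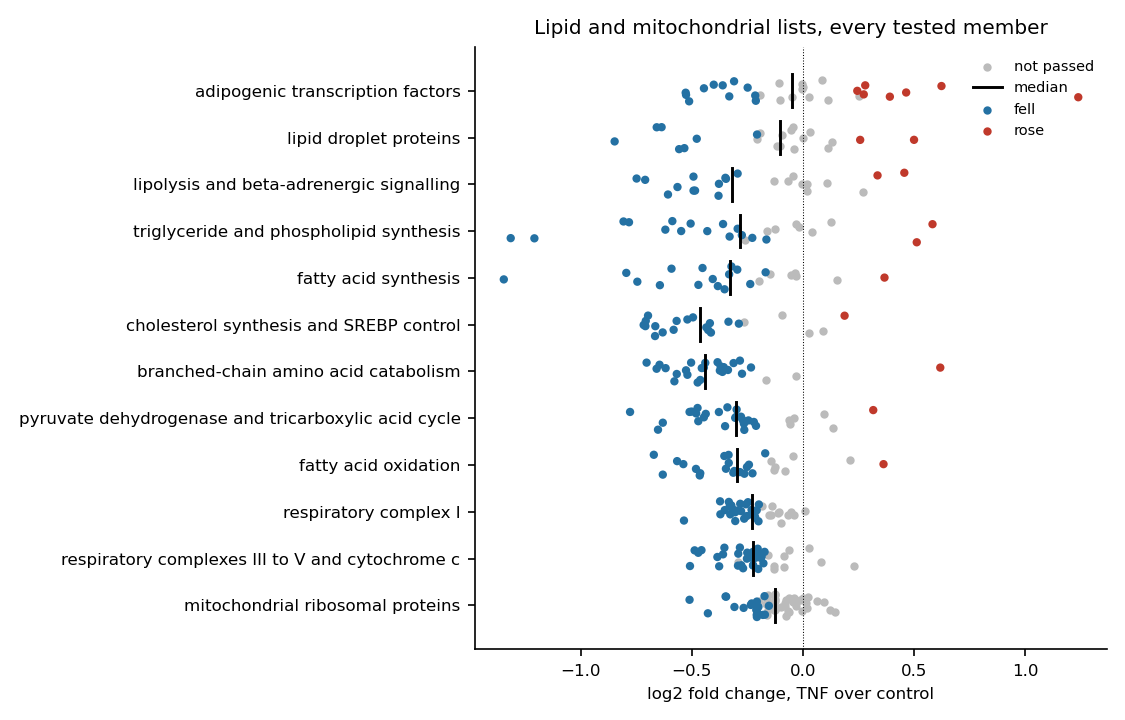
Log2 fold change of TNF over control (horizontal) for every tested member of 12 lipid and mitochondrial lists. Blue points fell, red points rose and grey points did not pass; black bars are list medians. The medians lie between -0.46 for cholesterol synthesis and -0.05 for adipogenic transcription factors, and 0 members of the 3 respiratory and mitochondrial ribosome lists rose.

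Many genes of mitochondrial oxidation fell. Branched-chain amino acids, which adipocytes burn, are broken down by enzymes of which 27 were tested. Of these 24 fell and 1 rose, with a median of -0.44. Bcat2, the mitochondrial transaminase that starts the pathway, was at 846, 850.2 and 864 on the TNF arrays, against 1446, 1332 and 1424 on the control arrays (log2 fold change -0.70, SE 0.0698, adjusted p = 3.53e-06). Bcat1, its cytosolic counterpart, moved the other way, at 319, 321 and 337 on the TNF arrays, against 202, 205 and 213 on the control arrays (log2 fold change 0.62, SE 0.0592, adjusted p = 2.53e-06). On these probe sets the 2 enzymes were thus opposed on every TNF array. Other probe sets of Bcat1 did not pass (0.24, adjusted p = 0.0673, and -0.16, adjusted p = 0.139). Bckdhb, of the next enzyme complex, fell by 0.53 on the log2 scale, and its inhibiting kinase Bckdk did not pass (-0.03).

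Of 29 genes of pyruvate dehydrogenase and the tricarboxylic acid cycle 23 fell and 1 rose, with a median of -0.30. Pdhb, a subunit of pyruvate dehydrogenase, lay at 3649, 3679.8 and 4125 on the TNF arrays, against 6210.1, 6404 and 7057 on the control arrays (log2 fold change -0.78, SE 0.0637, adjusted p = 5.15e-07), and Idh3a, of isocitrate dehydrogenase, at 4873, 5077 and 5093 on the TNF arrays, against 7374, 7859.9 and 8095 on the control arrays (log2 fold change -0.63, SE 0.0586, adjusted p = 1.83e-06). Both sets of TNF arrays were below all controls. Pdk3, a kinase that shuts pyruvate dehydrogenase, was the gene that rose (0.32 (SE 0.0571, adjusted p = 0.000866)). Among the 26 genes tested for the oxidation of fatty acids, 19 fell and 1 rose (median -0.30), with Cpt2 at -0.63 and Acadvl at -0.57. Cpt1a, the entry enzyme, did not pass (0.21, adjusted p = 0.0522).

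Most genes of the respiratory chain fell by small steps. Of 37 complex I genes 26 fell and 0 rose (0 also at an unadjusted p under 0.05, median -0.23), and 36 had a value below 0. Of 40 genes of complexes III to V and cytochrome c 30 fell and 0 rose (again 0 unadjusted, median -0.22). Ndufs1, the largest complex I subunit, was at 1686, 1723 and 1761 on the TNF arrays, against 2514, 2387 and 2618 on the control arrays (log2 fold change -0.54, SE 0.0519, adjusted p = 2.82e-06). Uqcrc2, a core subunit of complex III, lay at 2137, 2346 and 2375 on the TNF arrays, against 3081, 2955 and 3788 on the control arrays (log2 fold change -0.51, SE 0.0816, adjusted p = 0.000314). Of 59 mitochondrial ribosomal proteins 20 fell and 0 rose (0 unadjusted, median -0.13). The number of these that fell was 10 without TNF replicate 1, 9 without TNF replicate 2, 13 without control replicate 1 and 7 without control replicate 3. Over all genes it was 1244, 1273, 1516 and 1196 in these settings, against 1755 with every array.

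Single genes among the 20 lowest lay outside these lists or crossed them. Car3, a carbonic anhydrase abundant in fat, was at 3587, 3779 and 3882 on the TNF arrays, against 10572, 10318 and 9927 on the control arrays (log2 fold change -1.45, SE 0.0634, adjusted p = 7.69e-10), and its other probe sets gave -0.94 and -1.76. Cyp2e1, an ethanol-oxidising P450, lay at 454, 419 and 524 on the TNF arrays, against 991, 1241 and 1235 on the control arrays (log2 fold change -1.28, SE 0.0883, adjusted p = 9.23e-08). Pygl, a glycogen phosphorylase, fell by 1.21 and Noct, a circadian phosphatase, by 0.98 on the log2 scale. Nos3, the endothelial nitric oxide synthase, fell by 0.94, and the lowest of all, Lrrc17, a secreted leucine-rich repeat protein, was at 218, 223 and 268 on the TNF arrays, against 873, 743 and 584 on the control arrays (log2 fold change -1.56, SE 0.114, adjusted p = 1.65e-07). Poln, a DNA polymerase, lay at 255, 221 and 288 on the TNF arrays, against 580.4, 656 and 798 on the control arrays (log2 fold change -1.35, SE 0.1, adjusted p = 1.78e-07).

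Structural and matrix genes changed in both directions. Of 20 preadipocyte and myofibroblast markers 11 rose and 1 fell (median 0.37). The 1 that fell, Twist1 (-0.35), did not pass without TNF replicate 2 (adjusted p = 0.0761), TNF replicate 3 (0.0698), control replicate 1 (0.110) or control replicate 2 (0.0645). Acta2, smooth muscle actin, was at 7363, 7967 and 7693 on the TNF arrays, against 3732, 3981 and 4273 on the control arrays (log2 fold change 0.94, SE 0.062, adjusted p = 5.89e-08). Another probe set of Acta2 did not pass (0.11, adjusted p = 0.468). Pdgfra, which marks preadipocytes, lay at 4077, 3838 and 3574 on the TNF arrays, against 2601, 2153 and 1670.1 on the control arrays (log2 fold change 0.85, SE 0.143, adjusted p = 0.000436). Dlk1, the classical preadipocyte inhibitor of differentiation, did not pass on the probe set used (-0.16, adjusted p = 0.233), nor did Vim (0.14). On another probe set Dlk1 passed as lower (-0.30, adjusted p = 0.0107) and Vim as higher (0.24, adjusted p = 0.0191). Among 23 matrix proteases and inhibitors 13 rose and 3 fell. Timp1, a metalloprotease inhibitor, was at 1942, 2145 and 1488 on the TNF arrays, against 585, 506 and 486 on the control arrays (log2 fold change 1.78, SE 0.105, adjusted p = 1.99e-08), and the proteases Mmp9, Mmp3 and Mmp11 rose by 1.31, 1.16 and 1.17. Another probe set of Mmp9 gave 2.12.

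Of 29 matrix glycoproteins and proteoglycans 11 rose and 8 fell. Those that rose included fibronectin, Fn1 (0.86 (SE 0.0914, adjusted p = 6.92e-06)), versican, Vcan (0.96), and tenascin C, Tnc (0.80). Those that fell included Dpt, at 1358, 1400.1 and 1337 on the TNF arrays, against 3417, 3307 and 2614 on the control arrays (log2 fold change -1.17, SE 0.12, adjusted p = 4.91e-06), Ogn (-1.11) and Lum (-0.50), small proteins that bind collagen fibrils. The number that fell was 5 without TNF replicate 1, TNF replicate 2 or control replicate 2. Of 27 collagens and their processing enzymes 8 rose and 6 fell, the number that rose being 5 without TNF replicate 2 or control replicate 2, and the prolyl hydroxylase P4ha2 rose most (1.07 (SE 0.081, adjusted p = 2.35e-07)). The fibrillar genes Col1a1 (-0.21) and Col3a1 (-0.14) did not pass, although another probe set of Col3a1 passed as lower (-0.27, adjusted p = 0.0247).

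Growth genes rose by smaller steps. Of 40 cell cycle and replication genes 25 rose and 3 fell (median 0.26), and the number that fell was 1 without TNF replicate 2 or control replicate 3. Ccnd1, cyclin D1, was at 2359, 2443 and 2157 on the TNF arrays, against 1360.0, 1305 and 1263 on the control arrays (log2 fold change 0.82, SE 0.0713, adjusted p = 1e-06). Mcm5, of the replicative helicase, rose by 0.74 (SE 0.12, adjusted p = 0.000328), and Mki67, the proliferation marker, by 0.49 (SE 0.0854, adjusted p = 0.000629). Hmga2, a chromatin protein of growing mesenchymal cells, lay at 2464, 2517 and 2465 on the TNF arrays, against 634, 665 and 931 on the control arrays (log2 fold change 1.74, SE 0.133, adjusted p = 2.53e-07). Igfbp3, which binds insulin-like growth factors, was at 1510.2, 1619.8 and 1063 on the TNF arrays, against 473, 382 and 356 on the control arrays (log2 fold change 1.74, SE 0.158, adjusted p = 1.5e-06). Igf1 itself fell (-0.46 (SE 0.0799, adjusted p = 0.000584)). Of 31 genes of TGF-beta, activin and BMP signalling 11 rose and 3 fell, with Tgfb1 at 0.50 and Inhba at 0.44. Their other probe sets disagreed, since Tgfb1 passed the opposite way on its second set (-0.19, adjusted p = 0.0131) and Inhba did not pass on its second (-0.09).

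Genes that handle metals and oxidants were mixed. Of 17 metallothionein and zinc transporter genes 5 rose and 0 fell (0 also at an unadjusted p under 0.05). Of 34 antioxidant and glutathione genes 7 rose and 10 fell, with a median of -0.09, and the number that rose was 4 without TNF replicate 2. Mt2, a metallothionein, rose by 1.10 (SE 0.107, adjusted p = 2.94e-06), while Mt1 did not pass (0.18). Nqo1, a quinone reductase, rose by 0.91 (SE 0.0627, adjusted p = 9.23e-08), and Prdx3, a mitochondrial peroxidase, fell (-0.53 (SE 0.0629, adjusted p = 2.22e-05)). In the list of glycolysis and hypoxia, 11 members of 27 passed as higher and 6 as lower. Adm, the vasodilator adrenomedullin, rose by 1.30 (SE 0.144, adjusted p = 1.07e-05), and Hif1a by 0.39 (SE 0.0551, adjusted p = 0.000105), whereas Pfkfb3, an activator of glycolysis, fell (-0.76 (SE 0.0968, adjusted p = 3.87e-05)). Of 29 endoplasmic reticulum stress genes 1 rose and 2 fell at an adjusted p under 0.05, but 3 rose without control replicate 1 and 0 without TNF replicate 1 or control replicate 3. The chaperone Hspa5 was at 7890.5, 7625 and 8353 on the TNF arrays, against 7599, 7839 and 8138 on the control arrays (log2 fold change 0.02, SE 0.0585, adjusted p = 0.859).

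TNF was also set directly against the other 2 treatments. Against DEX, 18.1% of all genes were higher in TNF and 17.9% lower, and against CI 18.8% and 17.3%. Cxcl5 averaged 3849.9 ± 989 in TNF, 65.3 ± 12.9 in DEX, 381 ± 2.90 in CI and 535 ± 134 in control (log2 difference of TNF minus DEX 5.55, SE 0.178, adjusted p = 5.31e-12, and of TNF minus CI 3.25, SE 0.199, adjusted p = 1.52e-08). Cfb averaged 9256 ± 864 in TNF, 449 ± 179.8 in DEX, 724 ± 36.6 in CI and 1026 ± 121 in control (TNF minus DEX 4.39, SE 0.188, adjusted p = 1.46e-10; TNF minus CI 3.64, SE 0.21, adjusted p = 7.95e-09). Saa3 was higher in TNF than in DEX by 4.58 and than in CI by 5.41.

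Dexamethasone is a glucocorticoid, a class used to suppress inflammation. Of 31 interferon-stimulated genes 29 were higher in TNF than in DEX and 0 lower, while 4 were higher and 14 lower than in CI. The median log2 difference of these genes was 1.56 against DEX and -0.25 against CI, but -0.02 against control. Cholesterol synthesis genes were higher in TNF than in DEX in 20 of 22 and lower in 1, although most were lower than in control. Against CI 1 was higher and 18 lower. Complex I genes were mostly lower in TNF than in both, with 30 and 22 of 37 complex I genes lower than in DEX and in CI. Cyp2e1 averaged 466 ± 53.7 in TNF, 12209 ± 464 in DEX, 736 ± 21.1 in CI and 1156 ± 142 in control (TNF minus DEX -4.67, SE 0.0883, adjusted p = 1.64e-14). Gpat3 averaged 1711 ± 225 in TNF, 1371 ± 51.0 in DEX, 6599 ± 271 in CI and 4255 ± 104 in control (TNF minus CI -1.95, SE 0.0851, adjusted p = 5.95e-10).

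**Figure D5:**
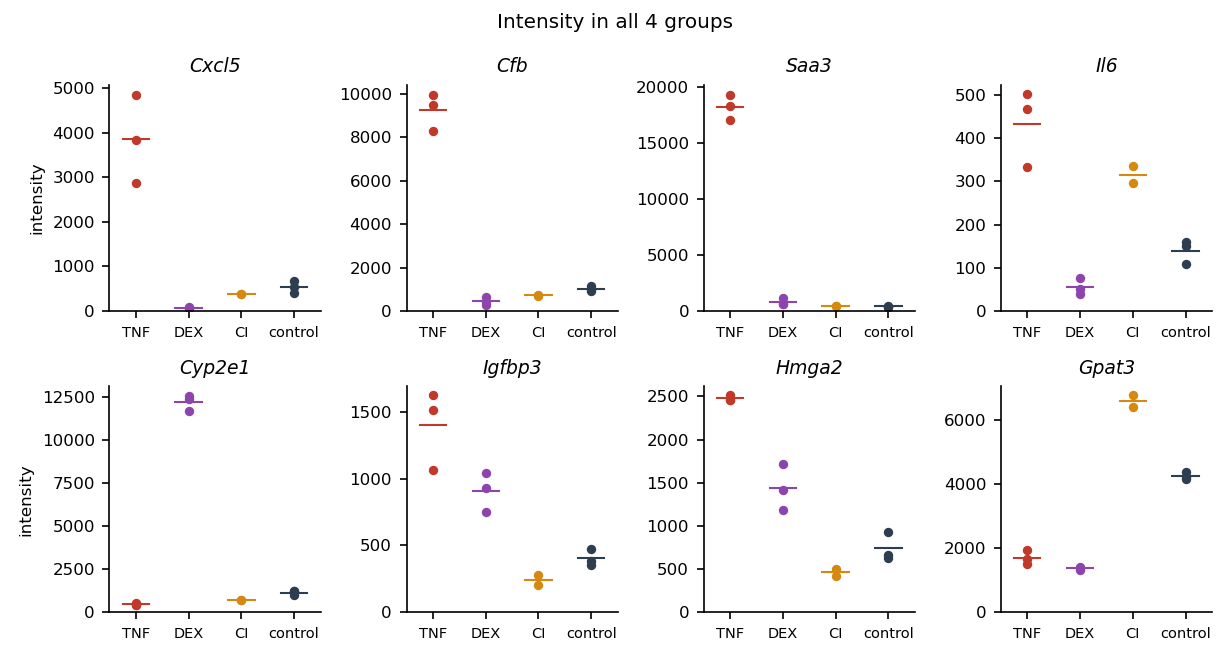
Intensity of 8 genes in TNF, DEX, CI and control, with 1 point per array (3, 3, 2 and 3 arrays), linear axes from 0 and short lines for the means. Cxcl5, Cfb and Saa3 are highest in TNF of the 4 groups, Cyp2e1 is high in DEX, and Gpat3 is lowest in DEX and TNF.

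Many genes had more than 1 probe set, and the results rest on the brightest. Of 7051 genes with several tested probe sets, 2021 passed on the brightest. In 606 of these all probe sets passed the same way, in 1400 another did not pass, and in 33 another passed the opposite way; a gene with 3 or more probe sets can count in both of the last groups. Npy1r, a neuropeptide Y receptor, did not pass on the set used (-0.08). On its other set it was at 239, 210.4 and 164 on the TNF arrays, against 60.8, 61.8 and 57.0 on the control arrays (log2 fold change 1.52). Sorbs2, a cytoskeletal adaptor, likewise had -0.18 on the set used and 1.83 on another. Further genes named above had a set that did not pass, among them Ptx3 (0.18), the LIF receptor (0.16), Vcan (-0.13) and Slc39a14 (0.07). So did Esrra (-0.004), Acly (-0.0006) and Acaca (-0.30). Other sets of Tnfaip3 (0.41) and Nfkbiz (0.44 and 0.45) passed with smaller values.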

How the data were processed

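RNA was measured on Affymetrix arrays. The authors deposited linear intensity values of 45101 probe sets per array; background correction, summarisation and normalization are not given in the sources used here, and quartiles on the log2 scale lay within 0.0765 of each other on all arrays, so no further normalization was applied. Array medians were 124.5 to 129.5. The 64 control probe sets were left out, 932 probe sets have several gene symbols and 9160 none, and per gene the probe set with the highest mean was used. Intensities plus 16 were taken to log2, genes under the 25th percentile (51.6) were left out, and limma 3.58.1 (R 4.3.3; lmFit and eBayes on all 11 arrays, two-sided, 7 residual degrees of freedom) tested TNF against control, DEX and CI, with Benjamini-Hochberg adjustment over 15625 genes. The pipeline was tested on simulated data. Errors are SDs beside mean intensities and standard errors beside fold changes; the number of arrays limits the precision. The 3′ to 5′ ratio of the Gapdh control sets was 1.07 to 1.10 on the 6 arrays and that of the actin sets 1.44 (TNF replicate 2) to 1.69 (TNF replicate 3); the part of this spread in the results was not tested. Among the control probe sets, those of bioB, bioC, bioD and cre were lowest on TNF replicate 3 of the 6 arrays. For example, BioB-3 was at 307 there, against 365 to 403 on the others. DapX-3 was not lower there (157, against 131 to 141). The part of this difference in the results was not tested either. No 2 arrays were copies (Spearman 0.9966 to 0.9977 within a group).

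The members and the 45 gene lists (1250 entries, 1056 distinct genes tested) were chosen with earlier results of these data known. Named are the 20 highest and 20 lowest genes whose arrays do not overlap, up to 8 passed and 3 bright unpassed members of each list, 26 genes of known interest, the 8 extremes against DEX and CI each way, and 5 genes with discordant probe sets. A further 40 genes were named for their role after their values were seen (Acsl5, Adgre1, Agpat2, C1qa, Ccl20, Ccl22, Ccl3, Ccl4, Cebpb, Cflar, Ciita, Col1a1, Cpt1a, Cx3cr1, Fads3, H2-Aa, H2-Ab1, H2-Eb1, Hif1a, Hmga2, Ikbkg, Il1b, Irf1, Lum, Mki67, Nfkb2, Nr1h3, Orm1, Pdk3, Ppargc1b, Psmb9, Scap, Serpina3n, Socs1, Srebf1, Srebf2, Stat3, Tfrc, Tnf and Twist1). Promoter letters come from RefSeq (GRCm38.p6). Alternatives covered the offset, dim filter, normalization, probe set choice, arrays fitted, replicate block and each array left out. No test of a list was made.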

Additional observations from a re-analysis of the deposited data

Results flagged for a closer look

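Probe sets without a single gene symbol lie outside the comparisons above. Of 5951 such probe sets above the dim filter, 292 were higher and 290 lower in TNF than in control (limma, adjusted p under 0.05), and 20 and 3 of them by more than 2-fold. They are given as counts, since no gene was named from them.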

How the results depend on the processing

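Across 15 alternatives the number of genes that passed stayed within 1.5 times the 3924 of the comparison with control, and so did the numbers higher and lower and those beyond 2-fold. The exceptions came when all 27827 probe sets were tested singly, where 3383 were higher and 190 higher by more than 2-fold, because more features were tested. With 1 array left out, 1594 to 2007 genes were higher and 1196 to 1516 lower. Of the 359 named genes that passed, 314 did so in every alternative that was run and 45 did not in at least 1. With the mean of all probe sets 3 genes turned sign: Npy1r (0.72), Sorbs2 (0.39) and Txn1 (-0.13), whose probe sets disagree. A further 51 named genes passed in at least 1 alternative only. TNF and control arrays share replicate numbers, and deviations of same-numbered arrays correlated by 0.29, 0.01 and 0.34. Those of TNF replicate 1 with control replicate 3 correlated by -0.31, and those of TNF replicate 3 with control replicate 1 by -0.32. The main fit used no pairing, and whether same-numbered arrays belong together was not tested. With the replicate number as a block, 2682 genes were higher and 2299 lower, against 2349 and 1883 in the same 6 arrays without it. Signals near the top of the arrays' range (Saa3, Hp, Adipoq) and near the dim filter limit what these arrays can resolve.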
